A study of Mus musculus with 55 samples.

Results

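Mttp encodes the large subunit of the microsomal triglyceride transfer protein, and DNA methylation at its alternative start site was followed in mouse liver from shortly before birth to adulthood. The CpGs of the locus-specific bisulfite sequencing (LSBS) table that carry the name Mttp were taken, which gave 4 of its 166 CpGs in 17 loci. They were joined by every cytosine of the reduced representation bisulfite sequencing (RRBS) table that lay between 5 kb upstream of the annotated Mttp start and the end of the gene, which gave 19 of 271325 cytosines at 17 CpG sites. LSBS sequences PCR products of bisulfite-treated DNA, and RRBS reads cytosines beside the cutting sites of the enzyme MspI across the genome.

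All livers came from C57BL/6 mice by the labels, C57BL/6J in the study's methods, with no genetic change or drug named in the labels, and the groups are named by age. LSBS covered 5 livers at E18.5 (late embryonic), 5 at P1 (postnatal day 1), 4 at P5, 4 at P10, 3 at P15, 5 at P20 and 5 at 6 mo of age, in all 16 females and 15 males. RRBS covered 5 livers at E18.5, 9 at P1 and 10 at 9 wk. The RRBS labels give no sex. At E18.5, 3 RRBS titles carry the same animal number as LSBS titles, all 3 of them male there, so livers may be shared between the assays. The study's methods describe its 9 wk RRBS livers as male and its first RRBS mice as fed a chow with coconut oil, and the P1 RRBS titles also name 6 months, which the sources used here do not explain. The labels do not say which livers of an age shared a litter, so the p-values below measure the spread between these livers. The depth behind a single value is unknown beyond a minimum, since no read count per CpG entered these comparisons. In the study's methods an RRBS CpG with fewer than 10 reads in a sample counted as missing. A whole liver holds hepatocytes, blood-forming and other cells whose shares change after birth, and a change of methylation within a cell type and a change in the mix of cell types cannot be told apart in these values.

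The microsomal triglyceride transfer protein sits in the endoplasmic reticulum as a complex of the Mttp product with the protein disulfide isomerase P4hb. It loads triglyceride onto apolipoprotein B as that protein is made, which is the first step in assembling very low density lipoprotein in the liver and chylomicrons in the gut. The gene is transcribed in hepatocytes and enterocytes under factors such as HNF4A and is held down by insulin through forkhead factors. Methylation of CpGs close to a start site is in general lower where the start site is in use, but expression was not measured here.

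In mm9 the gene lies on the minus strand at chr3:137752819-137806352, and the GENCODE vM1 annotation gives it 2 protein-coding transcripts. Mttp-202 starts at position 137806352 and has 20 exons, with its start codon in exon 3. Mttp-201 starts 12011 bp further downstream, at position 137794341, and has 18 exons, with its start codon in exon 1. The 4 LSBS CpGs lie in the intron after exon 3 of Mttp-202 and upstream of Mttp-201, at positions 137794443, 137794471, 137794508 and 137794512, a span of 70 bp, of which the last 3 are 130, 167 and 171 bp upstream of the downstream start and the first is nearest to it. The start sites differ in CpG content. The 250 bases before the downstream start hold 6 CpGs and are 46.4% G and C, whereas the 250 bases before the upstream start hold 25 CpGs and are 62.8% G and C. None of the 4 LSBS CpGs or 19 RRBS cytosines lies before the upstream start. The RefSeq start of Mttp in the promoter table lies 30 bp from the upstream start and not at the downstream one.

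The sequence of the 250 bases before the downstream start (mm9, chr3:137794342-137794591, minus strand, read 5′ to 3′ towards the start) is shown because all LSBS values come from it. The capitals mark the 4 CpGs measured, of which the first is 171 bp from the start and the last is the nearest to it.
Mttp downstream start: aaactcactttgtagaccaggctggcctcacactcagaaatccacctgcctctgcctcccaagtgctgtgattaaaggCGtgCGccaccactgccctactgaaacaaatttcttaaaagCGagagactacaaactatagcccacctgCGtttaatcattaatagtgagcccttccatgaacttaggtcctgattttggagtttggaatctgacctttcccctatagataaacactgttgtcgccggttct
The other CpGs of this stretch, 6 and 9 bp from the start, have no LSBS value. The first of these is inside the stretch's 1 MspI site, CCGG. The nuclear receptor motif AGGTCA occurs once, 36 to 41 bp from the start, on the strand opposite to the one printed. It belongs to the 1 match of a direct repeat of that motif, on that same strand, with 1 base between the copies and up to 2 mismatches. Searched on both strands, the first 250 bases of 32851 RefSeq promoters (GRCm38.p6) held CCGG in 47.1%, AGGTCA in 14.02% and the direct repeat in 3.24% of cases. The direct repeat was chosen after the sequence was seen. The forkhead core TGTTTAC (3.17% of promoters), TATAAA (12.4%) and the E-box CACGTG (6.02%) had no match in this window. The 41 bases centred on each of the 4 CpGs occur once in mm9. The 25 bases centred on the CpGs 167 and 171 bp upstream occur 1941 and 28 times, while those centred on the other 2 occur once, so short stretches around the outer 2 CpGs recur in the genome.

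At the downstream start, methylation was high around birth and was far lower in the adult. The mean over the 4 CpGs was 62.0% at E18.5, 63.8% at P1, 59.7% at P5, 45.5% at P10, 34.7% at P15, 27.7% at P20 and 24.8% at 6 mo. The step from P5 to P20 made up 86.1% of the change between E18.5 and 6 mo. The CpG nearest the start had the lowest level and the pair farthest from it the highest, at every age.

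At the CpG nearest the start (position 137794443), the 5 livers at E18.5 had 44.3, 45.7, 46.3, 47.1 and 47.3% methylation. The 5 livers at P1 had 47.7, 47.9, 49.4, 49.5 and 52.8%. The 4 livers at P5 had 40.2, 44.2, 45.4 and 48.2%. Up to this age all livers stayed above 40%, and the lowest P1 liver lay just above the highest E18.5 liver. The 4 livers at P10 had 27.7, 29.98, 30.5 and 30.6%. The 3 livers at P15 had 18.7, 21.8 and 21.8%. The 5 livers at P20 had 10.9, 14.9, 15.9, 17.2 and 17.3%. Each of these 3 ages lay wholly below the one before it. The 5 livers at 6 mo had 11.3, 12.2, 13.4, 14.1 and 16.3%, within the range of P20.

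At the CpG 130 bp upstream, the livers at E18.5 had 62.5, 63.0, 63.4, 64.9 and 65.4%. Those at P1 had 62.7, 64.0, 64.7, 67.1 and 68.6%, and those at P5 had 56.8, 63.3, 63.5 and 64.6%. These 3 ages overlapped, with 1 liver at P5 lower than the rest. At P10 the values were 45.5, 46.7, 47.4 and 47.5%, and at P15 they were 31.4, 35.8 and 39.0%. At P20 they were 26.5, 27.6, 29.0, 30.4 and 30.8%, and at 6 mo 22.7, 24.7, 26.1, 26.4 and 27.8%. The groups at P10, P15 and P20 did not overlap with each other, while P20 and 6 mo did.

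The CpG 167 bp upstream had the highest mean of the 4 at each age. Its livers had 69.2, 69.4, 70.9, 71.4 and 71.9% at E18.5. They had 69.3, 69.7, 70.8, 72.2 and 74.2% at P1 and 62.9, 68.6, 69.0 and 69.7% at P5. Its values were 51.5, 52.9, 53.9 and 54.5% at P10 and 38.3, 41.2 and 45.6% at P15. They were 31.3, 31.6, 34.2, 35.5 and 35.6% at P20 and 27.2, 29.1, 31.0, 32.3 and 32.6% at 6 mo. As at the CpG 130 bp upstream, P10, P15 and P20 were apart and P20 and 6 mo overlapped.

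The CpG 171 bp upstream, 4 bases further out, ran beside it. Its livers had 64.7, 67.0, 67.9, 68.6 and 68.7% at E18.5. They had 67.1, 67.4, 68.0, 70.3 and 72.4% at P1 and 61.04, 63.6, 65.6 and 67.7% at P5. Its values were 50.9, 51.4, 52.9 and 53.4% at P10 and 37.4, 41.05 and 44.0% at P15. They were 30.9, 31.1, 32.9, 34.6 and 35.01% at P20 and 27.2, 29.2, 30.01, 31.4 and 31.7% at 6 mo. The 2 means of this pair were 3.19 points apart at E18.5 and 0.536 points apart at 6 mo.

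**Figure D1:**
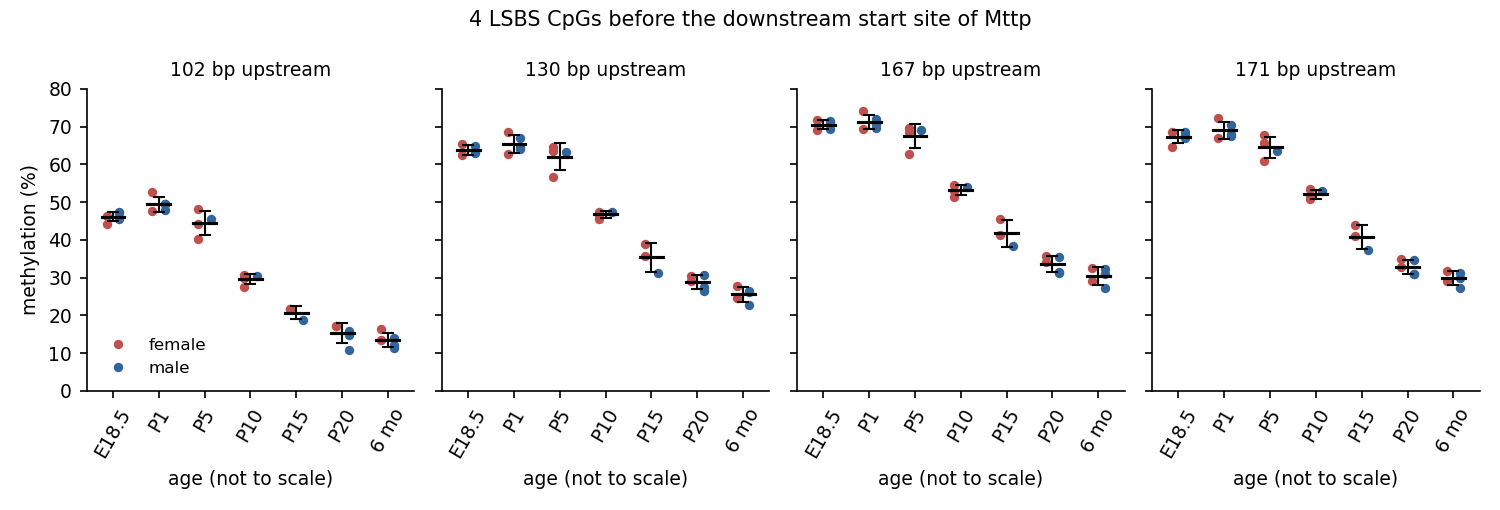
Methylation (percent, vertical axis) of the 4 LSBS CpGs before the downstream Mttp start at 7 ages (horizontal axis, not to scale), 1 panel per CpG. Each point is a liver, females and males in different colours, and the bars with whiskers give the mean ± SD (n = 3 to 5). All 4 CpGs stay near their E18.5 level until P5 and then fall to P20, the nearest CpG (leftmost panel) from a mean of 44.5 to 15.2%.

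The comparison of E18.5 with 6 mo asks how far this start site changed between the fetal and the adult liver. A CpG counted as lower when its mean was over 5 points down and its limma p, Benjamini-Hochberg adjusted over 166 CpGs, was 0.1 at most. All 4 Mttp CpGs were lower by this rule, beside 17.5% of all LSBS CpGs. That share includes loci whose means were too low to fall by over 5 points. The Nfkb1, Nfkb2, Nr1h2, Srebf1, Srebf2 and Pck2 loci (19, 2, 17, 22, 15 and 10 CpGs) had means up to 0.900% at all ages. The Igf2 locus (11 CpGs) had 1.57% at E18.5 and 3.65% at 6 mo. These CpGs count in each share of losses over all LSBS CpGs, here and below, and make it smaller. The nearest CpG averaged 46.1% with an SD of 1.21 in the 5 E18.5 livers and 13.5% with an SD of 1.91 in the 5 adult ones. Its change was -32.7 points (SE 1.33, 95% interval -35.4 to -30.0, limma adjusted p = 4.43e-18). The CpG 130 bp upstream went from 63.8% (SD 1.25, 5 livers) to 25.6% (SD 1.92, 5 livers), which is -38.3 points with an SE of 1.43 and a limma adjusted p of 7.66e-19. The CpG 167 bp upstream went from 70.6% (SD 1.21) to 30.4% (SD 2.28), which is -40.1 points with an SE of 1.397 and a limma adjusted p of 1.80e-19. The CpG 171 bp upstream went from 67.4% (SD 1.66) to 29.9% (SD 1.81), which is -37.5 points with an SE of 1.33 and a limma adjusted p of 2.44e-19. At none of these 4 did the livers of E18.5 and 6 mo overlap, where 17.5% of all LSBS CpGs were wholly lower at 6 mo, and the exact permutation test gave p = 0.00794 at each, the smallest it can give with 5 against 5 (two-sided, adjusted 0.0235). In points the loss was least at the CpG nearest the start. Relative to the E18.5 level it was greatest there, with 29.2% of the level left at 6 mo, against 40.04, 43.1 and 44.4% at the CpGs 130, 167 and 171 bp upstream.

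Among the 17 loci, 1 had a larger loss of its mean level than Mttp, Rxrg with -54.4 points beside -37.1 points. Acsl1, Nr1i3 and Pck1 were close to Mttp, with -34.8, -34.8 and -31.8 points, and the remaining loci changed by -0.357 to 25.7 points. The 4 Mttp CpGs held ranks 13, 16, 17 and 21 of 166 by size of loss, where 29 CpGs were called lower. In a moderated F test for any difference between the 7 ages, all 4 had an adjusted p of at most 4.34e-20 (limma), and 71 of the 166 CpGs had one up to 0.1.

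Comparisons of consecutive ages placed the called falls between P5 and P20. From P5 to P10 all 4 CpGs fell, with changes of -14.8, -15.3, -14.3 and -12.3 points in order of distance from the start (limma adjusted p at most 9.98e-08), beside 15.1% of all LSBS CpGs. From P10 to P15 all 4 fell again, with changes of -8.89, -11.4, -11.5 and -11.4 points (limma adjusted p at most 8.28e-05), beside 18.7%. From P15 to P20 all 4 fell once more, with changes of -5.54, -6.52, -8.08 and -7.91 points (limma adjusted p at most 0.00840), beside 15.7%. In each of these 3 steps the livers of the earlier and the later age did not overlap at any of the 4 CpGs, beside 16.3, 21.1 and 16.9% of all LSBS CpGs with a wholly lower later age. From P15 to P20, leaving out 1 P20 value took the nearest CpG to -4.45 points and leaving out 1 P15 value took that 130 bp upstream to -4.72 points, which in each case ended the call. The exact permutation test cannot go below p = 0.0286 for P10 against P15 with 4 and 3 livers, and at that step its adjusted p of 0.136 left 0 of the 4 called. The largest step at each CpG was from P5 to P10, with 45.4, 39.9, 35.7 and 32.9% of the whole change in the same order, so no single step held the larger part of the fall.

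The remaining steps were smaller than the 5 points asked for. From E18.5 to P1 none of the 4 was called, with changes of 3.31, 1.59, 0.663 and 1.68 points, beside 6.02% of all LSBS CpGs that gained. By limma 1 of the 4 had an unadjusted p under 0.05, the nearest CpG (limma adjusted p = 0.108). Its livers did not overlap, as at 15.7% of all LSBS CpGs in this direction, and the exact test gave p = 0.00794 (adjusted 0.0507). From P1 to P5 none was called, with changes of -4.95, -3.39, -3.70 and -4.56 points, beside 8.43% that fell. All 4 had an unadjusted limma p under 0.05, and the nearest and the farthest had adjusted p-values of 0.0176 and 0.0330 with a size just under 5 points. The exact test called none either, with 3 of the 4 at an unadjusted p under 0.05. From P20 to 6 mo none was called, with changes of -1.79, -3.31, -3.21 and -2.997 points, beside 3.01% that fell. By limma 3 of the 4 had an unadjusted p under 0.05, and the lowest adjusted p was 0.252. By the exact test 2 of the 4 had one under 0.05 and none was called. The 95% intervals of these last changes reached from -6.25 points, 130 bp upstream, to 0.942 points, at the nearest CpG.

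The order of the 4 CpGs was kept while all of them fell. At each of the 7 ages the highest liver at the nearest CpG lay below the lowest liver at the other 3, with a gap of 15.2 points at E18.5 and 6.44 points at 6 mo. The range of the 4 means narrowed from 24.4 points at E18.5 to 17.0 points at 6 mo. SDs between livers of 1 age ran from 0.930 to 3.84 points, and both the fall from P5 to P20 and the gap below the other CpGs were larger than this spread. Rows of the LSBS table could be tied to 1 liver across CpGs only where an age had a single male. The single male at P15 had the lowest value of its age at all 4 CpGs, with 18.7, 31.4, 38.3 and 37.4%, and the single males at P5 and P10 lay inside the range of the females at all 4.

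Sex was compared because the study pooled females and males, after finding no sex difference at the LSBS loci that it describes. Within ages, females exceeded males by 1.02, 0.857, 0.795 and 0.963 points at the 4 CpGs in order of distance from the start. In exact permutation tests with sexes exchanged within ages (two-sided), the p-values were 0.211, 0.337, 0.362 and 0.244, and the adjusted ones 0.702 to 0.859 over 166 CpGs. Females had the higher mean at 4 or 5 of the 7 ages. The change from E18.5 to 6 mo was -30.5 points in females and -34.2 points in males at the nearest CpG, which are 3.70 points apart with an SE of 2.67 (adjusted p = 0.781 by limma). At the other 3 it differed by 0.762 to 2.09 points with adjusted p-values from 0.842 to 0.926. With 2 females and 3 males at both ages these differences are imprecise, with SEs from 2.67 to 2.99 points.

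Of the other LSBS loci, those whose 7 age means ran most like the Mttp mean were the Acsl1 promoter (r = 0.998), the Pck1 promoter (r = 0.996) and the alternative start of Rxrg (r = 0.993). Acsl1 is an acyl-CoA synthetase that activates fatty acids, Pck1 is the cytosolic phosphoenolpyruvate carboxykinase of gluconeogenesis, and Rxrg is a retinoid X receptor. Between E18.5 and 6 mo, Acsl1 went from 53.9 to 19.2% and Pck1 from 53.3 to 21.5%, so both stayed below Mttp at each age, while Rxrg went from 67.2 to 12.7%. Leaving out 1 age kept r between 0.991 and 0.999 for these 3. The least alike was the promoter of Sftpa1, a surfactant protein of the lung, which rose from 54.97 to 80.7% (r = -0.976). These correlations have 7 points that share livers and are given as a description.

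**Figure D2:**
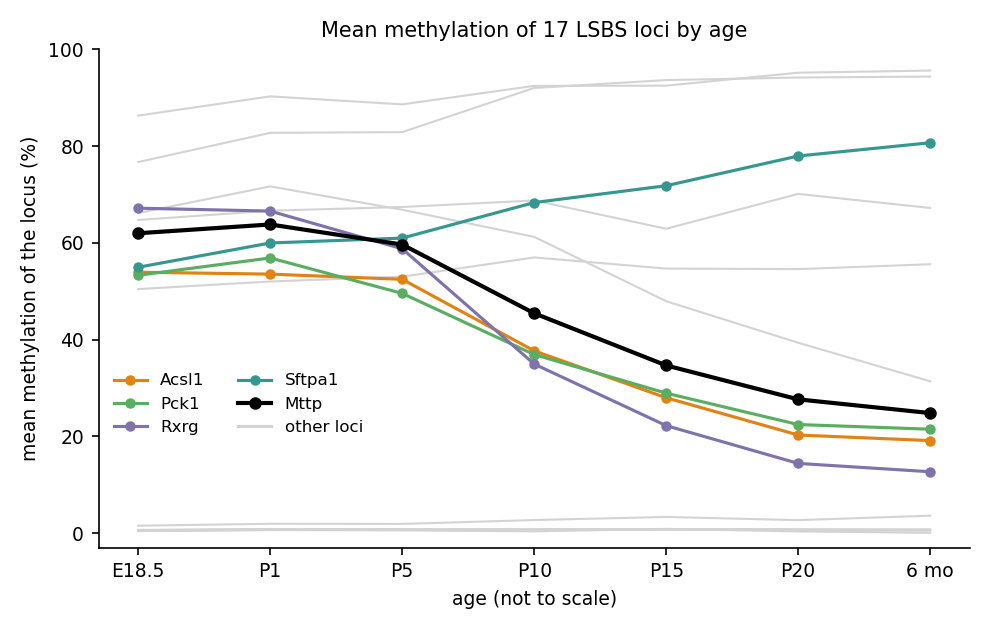
Mean methylation (percent, vertical axis) of the 17 LSBS loci at 7 ages (horizontal axis, not to scale), with Mttp in black, the 3 loci most like it and the 1 least like it in colour and the others in grey. Mttp falls from 62.0 to 24.8%, beside Acsl1 and Pck1, and Sftpa1 rises to 80.7%.

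RRBS covered the body of the gene and not its start sites. The nearest RRBS cytosine lies 8728 bp from the nearest LSBS CpG, on the downstream side. The 19 cytosines fall in intron 5, exon 9, intron 9, exon 10, intron 14, intron 17 and exon 20 of Mttp-202, all of these exons coding, and 2 pairs of them are the opposite strands of 1 CpG. Most of the body was highly methylated at all 3 ages. At E18.5, 16 of 19 cytosines had a mean between 75.5 and 88.1%, and the other 3, in exon 20, had 48.1 to 55.6%. The 3 cytosines at chr3:137754070, chr3:137754115 and chr3:137769479 had too few values at 9 wk to be tested. In the study's methods a missing value means that coverage was too low.

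**Figure D3:**
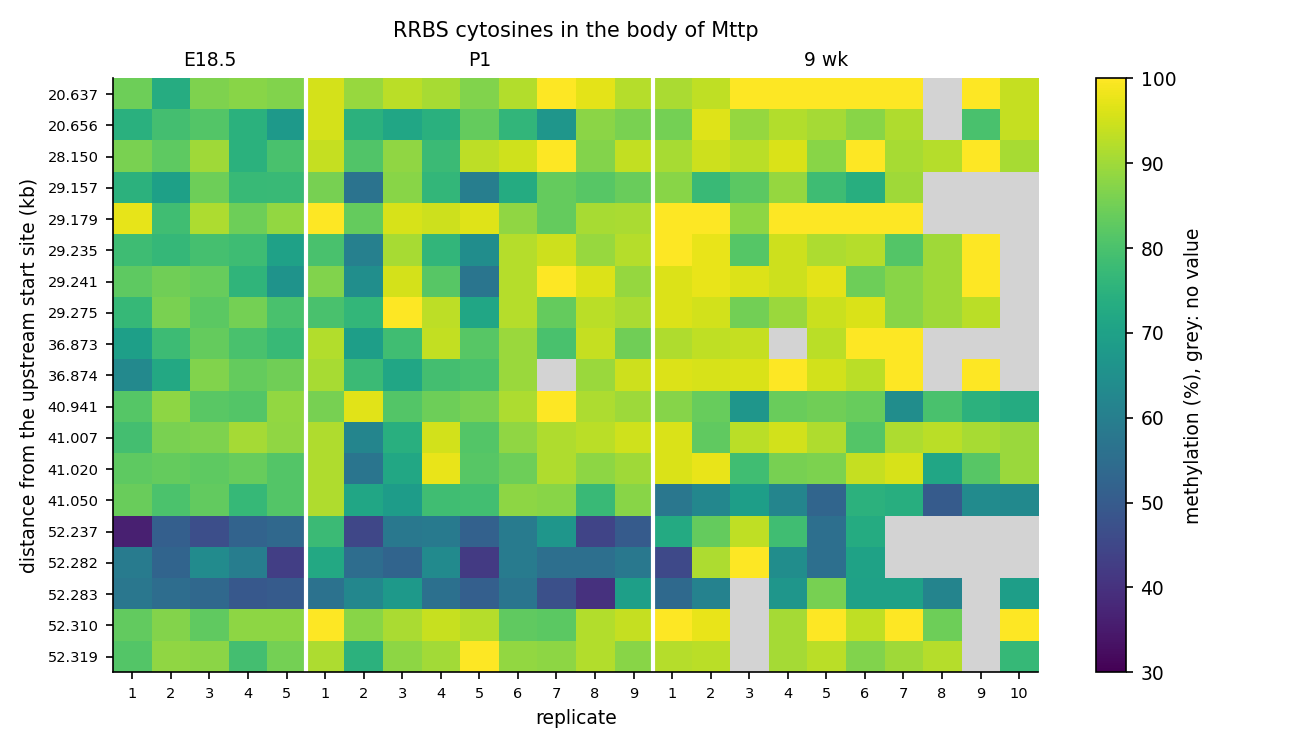
Methylation (colour, percent) of the 19 RRBS cytosines of Mttp in each library, ordered by distance from the upstream start (kb, vertical axis), with the replicates of E18.5, P1 and 9 wk side by side. Grey cells have no value, mostly in 9 wk replicates 8 to 10. The cytosine 41050 bp from the start, at chr3:137765302, is lower in the 9 wk libraries (50 to 75%) than at E18.5 (77.0 to 84.1%), and most others are higher.

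From E18.5 to 9 wk, 10 of the 16 cytosines tested gained, 1 lost and 5 were not called (limma on percent methylation, Benjamini-Hochberg adjustment over 249729 CpGs). Over all CpGs tested, 58.5% gained and 6.46% lost. The median change of the 16 was 10.0 points, beside 9.68 points over all CpGs, so their direction is that of the whole table. Dividing each library by its mean over 30431 highly methylated CpGs, which takes out their mean change by construction, moved the median over all CpGs to 0.524 points and that of the 16 to -0.974 points, and then 0 gained and 2 lost, beside 17.2% and 13.4% of all CpGs.

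The largest gain was at chr3:137769478 in intron 14. The 5 E18.5 libraries had 63.0, 72.2, 83.6, 84.8 and 86.8% there, and the 8 libraries at 9 wk with a value had 92.9% at the lowest, a median of 96.1% and 100% at the highest. The ages did not overlap, and the rise was 18.9 points (SE 3.74, limma adjusted p = 0.000674), or 8.39 points after scaling (limma adjusted p = 0.127). At chr3:137785715 in intron 5, the cytosine of the RRBS set nearest to the downstream start, the E18.5 libraries had 73.4, 84.6, 86.3, 86.8 and 87.5%. The 9 libraries at 9 wk had 91.2% at the lowest, with median and highest value at 100%, and the rise was 13.8 points (SE 2.94, limma adjusted p = 0.00101). The exon 10 cytosines at chr3:137777111 and chr3:137777117 rose by 15.2 and 15.6 points (limma adjusted p = 0.00208 and 0.00167). The other 6 gains were of 9.79 to 14.1 points, and those at chr3:137754042, chr3:137777077 and chr3:137777173 turned below 0 after scaling. Of the 10 gains, 3 had no overlap between the ages, beside 32.9% of all gains in this comparison.

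The 1 loss was at chr3:137765302 in intron 17. The E18.5 libraries had 77.0, 80.3, 81.4, 83.2 and 84.1%. The 9 P1 libraries had 68.8% at the lowest, a median of 78.8% and 91.7% at the highest, and the 10 libraries at 9 wk had 50, 62.8 and 75%. The 9 wk libraries all lay below those of E18.5, as at 3.01% of all CpGs tested and 46.7% of all losses. They overlapped with P1. The mean was 81.2% with an SD of 2.78 in 5 E18.5 libraries and 63.0% with an SD of 8.20 in 10 libraries at 9 wk, which is -18.2 points (SE 3.80, 95% interval -26.2 to -10.3, adjusted p = 0.000781 by limma). After scaling the change was -27.3 points (limma adjusted p = 1.63e-05), and with the 7 first deposited 9 wk libraries alone it was -16.5 points (limma adjusted p = 0.00263). An unscaled change at or below that of this cytosine was seen at 4.08% of all CpGs tested. Its neighbours in a stretch of 140 bases were not called without scaling. The cytosine at the far end, chr3:137765411, changed from 84.3 to 78.2% (-6.10 points, limma adjusted p = 0.175), and was called after scaling (-16.2 points, limma adjusted p = 0.00316) and with Storey's q (0.0340). The 2 in between, chr3:137765332 and chr3:137765345, changed by 4.89 and 4.42 points, were not called (adjusted p = 0.281 and 0.200) and turned to -5.50 and -6.34 points after scaling. The stretch is printed to show how close these 4 CpGs lie (mm9, chr3:137765287-137765426, minus strand, 5′ to 3′), with the CpGs in capitals. The first is that of position 137765411 and the last is the 1 that fell, and both of these are in an MspI site.
Mttp intron 17: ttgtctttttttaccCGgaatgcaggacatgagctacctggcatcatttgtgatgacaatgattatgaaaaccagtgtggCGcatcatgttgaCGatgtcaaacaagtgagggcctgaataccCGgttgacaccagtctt

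**Figure D4:**
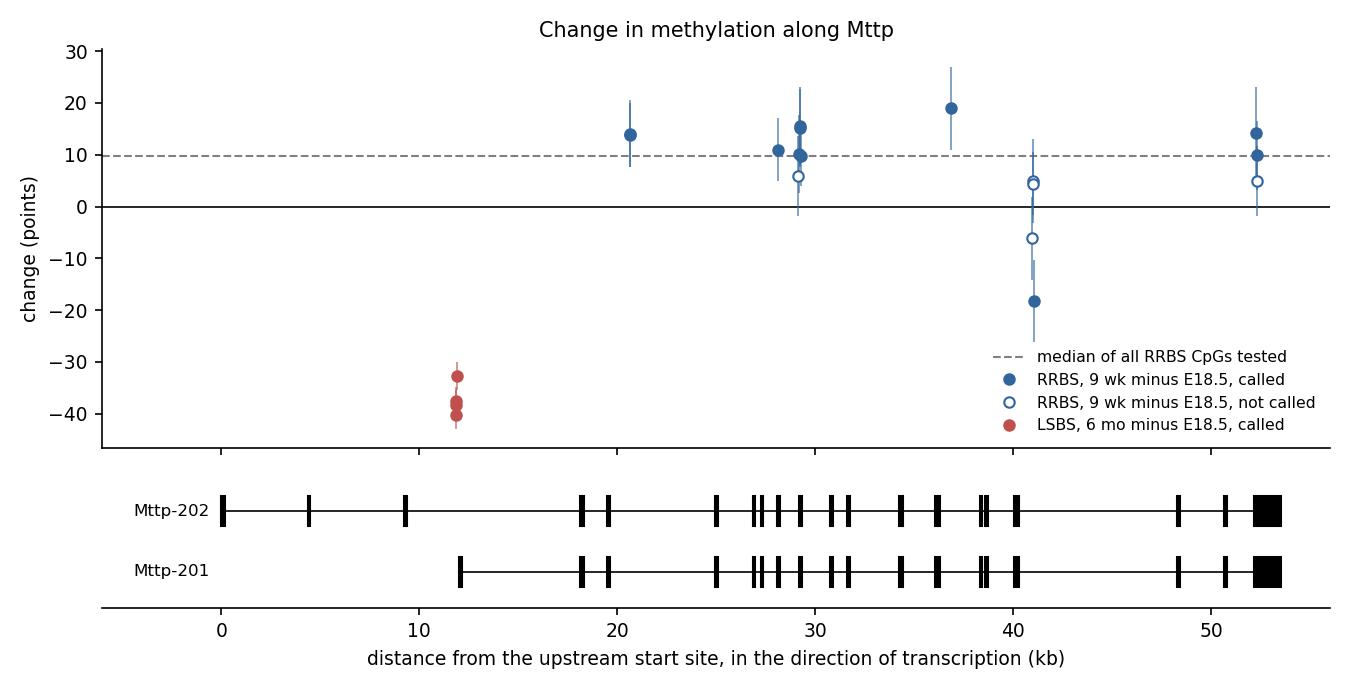
Change in methylation (percentage points with 95% intervals, vertical axis) of each tested CpG against its distance from the upstream Mttp start (kb, horizontal axis), above the exons of both transcripts. Filled points were called and open ones were not, and the dashed line is the median of all RRBS CpGs tested (9.68 points). The 4 LSBS CpGs at the downstream start lie between -32.7 and -40.1 points, comparing E18.5 with 6 mo, and the RRBS cytosines between -18.2 and 18.9 points, comparing E18.5 with 9 wk.

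None of the body's cytosines was called between E18.5 and P1, and the calls at 9 wk against P1 were fewer than against E18.5. From E18.5 to P1, 0 of 19 cytosines were called (limma, 1 with an unadjusted p under 0.05), beside 0.540% of all CpGs that gained and 0.0119% that lost. Their median change was 4.65 points and that of all CpGs 3.74 points. From P1 to 9 wk, 5 of 16 gained, beside 36.1% of all CpGs, and 2 lost, beside 7.00%. These 7 calls became 4 without 9 wk replicate 5 and 11 with Storey q values, settings for which no share over all CpGs was counted. The 2 losses were in intron 17, at chr3:137765302 (-18.1 points, limma adjusted p = 0.000586) and chr3:137765411 (-11.4 points, limma adjusted p = 0.0119). After scaling, 0 gained and 2 lost in this comparison, beside 13.2% and 9.83% of all CpGs. The ages overlapped at each of the 16, where 3.82% of all CpGs were wholly higher and 1.91% wholly lower at 9 wk. The exon 20 cytosines lay at different levels although they are close together. The cytosine at chr3:137754069 averaged 53.1% in E18.5 livers (SD 3.51, 5 libraries), 56.4% in P1 livers (SD 9.46, 9 libraries) and 67.2% in 9 wk livers (SD 9.35, 8 libraries). Its neighbours at chr3:137754042 and chr3:137754033 were at 85.9 and 84.4% at E18.5.

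Over the Mttp cytosines with a value, single E18.5 libraries averaged 75.4 to 79.9%, P1 libraries 70.9 to 87.3% and 9 wk libraries 81.4 to 89.5%. The P1 range thus held the whole E18.5 range and overlapped with that of 9 wk, and P1 replicate 2 was the lowest library. The 3 last-deposited 9 wk libraries, replicates 8 to 10, lacked 31.5 to 40.9% of all CpGs and had values at 10 or 11 of the 19 Mttp cytosines, and both ends of the 9 wk range come from them. Without these 3 libraries all 19 cytosines could be tested from E18.5 to 9 wk and 15 of them were called. The share over all CpGs was not computed for this setting. With all 9 wk libraries, 58.5% of all CpGs tested gained and 6.46% lost.

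Lists of genes give the surroundings of Mttp in the RRBS values from E18.5 to 9 wk, each counted from 5 kb upstream of a gene to its end and described by counts with no test of the list. The 14 genes of lipoprotein assembly had tested CpGs in 11 genes, and of 91 CpGs 55 gained (60.4%) and 14 lost (15.4%), beside 58.5% and 6.46% of all CpGs, with a median change of 9.29 points. After scaling 24 gained and 21 lost (26.4% and 23.1%, beside 17.2% and 13.4%), with a median of -0.488 points. The CpG with the largest gain and a value in every library was in Sort1, a sorting receptor that binds apolipoprotein B, where 5 E18.5 libraries averaged 66.5% (SD 6.31) and 10 libraries at 9 wk 94.3% (SD 5.10, limma adjusted p = 3.11e-06). The one with the largest loss was in Apobec1, the deaminase that edits Apob mRNA, 6516 bp downstream of its start, where the averages were 51.6% (SD 4.31) and 7.40% (SD 6.10, limma adjusted p = 2.55e-08). By gene, which was looked at after the values were seen, 23 of 25 CpGs gained in Cideb, a lipid droplet protein of lipoprotein lipidation (19 after scaling), and 6 of 9 lost in Dgat2, an acyltransferase that makes triglyceride (7 after scaling). P4hb, the partner of Mttp in the complex, had 3 CpGs tested, of which 0 were called and 1 lost after scaling.

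The 12 regulators of Mttp transcription had 161 CpGs tested, of which 63 gained and 53 lost, with a median change of 4.04 points (25 and 62 after scaling, with a median of -4.01 points). The gains made up 39.1% and the losses 32.9% of the CpGs, beside 58.5% and 6.46% over all CpGs, and after scaling 15.5% and 38.5%, beside 17.2% and 13.4%, and CpGs of 1 gene are not independent of each other. Both named CpGs of this list lie in Nr5a2, the nuclear receptor LRH-1. The CpG at chr1:138849612 averaged 0.999% (SD 1.43) at E18.5 and 32.2% (SD 11.2) at 9 wk, 31.2 points higher (limma adjusted p = 5.08e-05). The CpG at chr1:138808996 averaged 84.9% (SD 8.54) and 39.0% (SD 11.2), a change of -45.8 points (limma adjusted p = 2.75e-06). By gene, again looked at after the values were seen, most of the losses lay in 3 genes, with 20 of 23 CpGs in Rxra, 11 of 22 in Hnf4a and 7 of 8 in Ppara (20, 13 and 7 after scaling). Srebf1 lost 6 of 9 CpGs and gained 1 (7 and 0 after scaling). Nr5a2 gained 14 of 29 and lost 7 (10 and 8 after scaling), and Nr2f1 gained 7 of 8 and lost 0 (4 and 0 after scaling).

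The 25 annotated genes within 500 kb of Mttp had 69 CpGs tested in 14 genes, leaving out those of Mttp. Of these, 49 gained (71.0%) and 0 lost (limma, 0 losses with an unadjusted p under 0.05), beside 58.5% and 6.46% of all CpGs, with a median change of 10.2 points. After scaling 15 gained and 5 lost (21.7% and 7.25%, beside 17.2% and 13.4%), with a median of 1.18 points. Among called CpGs lacking no value at E18.5 or 9 wk, the largest gain was in 1110002E22Rik, with averages of 63.5% (SD 4.08) and 90.4% (SD 5.76), 26.9 points apart (limma adjusted p = 3.34e-06). The nearest gene, Rg9mtd2, starts 60 bp from the upstream Mttp start on the other strand and had no RRBS CpG.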

How the data were processed

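Members and gene lists were chosen with earlier results of these data known. Whole livers were analysed by LSBS (31) and RRBS (24). The authors removed reads with adapter or PhiX sequence and aligned the rest to mm9 with Bismark 0.7.6 and Bowtie2 (per the labels and the study's methods), set RRBS CpGs under their coverage minimum to missing and left out CpGs with many missing values or under 10% in all samples. The deposited RRBS values are the fraction of methylated reads per cytosine and library, with no scaling, and were turned to percent here. The LSBS table as deposited by the authors gives methylation in percent for each CpG in each liver. For LSBS the study's methods describe minimums of coverage and of present values for another set of loci, and whether these applied to the 17 loci is not given in the sources used here. One searched motif is not reported here. The authors' tables also hold their own differences, p-values and q-values, which were not used. Groups were taken from age labels. LSBS rows carry age and sex but no liver, and 830 rows at 9 wk match no sample and were not used.

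LSBS was fitted with limma 3.58.1 in R 4.3.3 with 1 mean per age over all 7 ages, RRBS with limma on the 2 ages compared. RRBS CpGs needed a value in 80% of the libraries compared and at least 10% in 1 of them. A CpG was called at a Benjamini-Hochberg adjusted p up to 0.1 over all CpGs of the comparison and a difference over 5 points. Exact permutation tests were two-sided. The percent scale is bounded at 100%. Of 91 pairs of RRBS libraries of 1 age, 0 had identical values. Named were all Mttp CpGs, the 3 loci most like and the 1 least like Mttp by Pearson r of 7 age means, and, for each list, the called CpGs that gained and lost most, provided no E18.5 or 9 wk library lacked a value. The alternatives covered the scale, variance, adjustment, sex, samples in the fit, scaling, missing values, windows and single values left out, and scaling of the gene lists was added after seeing the data. Fits were tested on simulated data. Places came from GENCODE vM1 on mm9, promoter sequences from RefSeq. Other steps used Python 3.11.15, pysam 0.24.0 and matplotlib 3.10.9.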

Additional observations from a re-analysis of the deposited data

Results flagged for a closer look

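Of 81 groups of livers or libraries at the Mttp CpGs, 5 had 1 library far from the rest by Dixon's criterion, which chance gives in about 1 of 20 groups. All 5 were low values in RRBS and none was in LSBS. At chr3:137754033, P1 replicate 2 had 75%, with the next library at 87.6%, and 9 wk replicate 10 had 76.9%, with the next at 86.7%. At chr3:137777117, E18.5 replicate 5 had 70%, with the next at 76.7%. At chr3:137777173, 9 wk replicate 3 had 88.2% while the 6 others with a value had 100%. At chr3:137785715, E18.5 replicate 2 had 73.4%, with the next at 84.6%.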

How the results depend on the processing

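The loss at the 4 LSBS CpGs from E18.5 to 6 mo and from P5 to P10 kept its direction and call under every alternative run. From P10 to P15 the exact permutation test called 0 of 4. From P1 to P5 a sex covariate gave 1 called CpG, and leaving out 1 value gave 0 to 2. The rise from E18.5 to P1 at the CpG 167 bp upstream ran from -0.0648 to 1.14 points when 1 value was left out. Leaving out 1 value also took 2 CpGs under 5 points from P15 to P20, with -4.45 points at the nearest CpG and -4.72 points 130 bp upstream. The median of the 4 CpGs in place of the mean was 65.6, 67.3, 63.3, 49.5, 38.1, 30.9 and 27.7% at the 7 ages in order. The mean without the nearest CpG was 67.3, 68.6, 64.7, 50.7, 39.3, 31.8 and 28.6%. Without the CpG 167 bp upstream it was 59.1, 61.3 and 42.9% at E18.5, P1 and P10, and without that 171 bp upstream 60.2 and 43.2% at E18.5 and P10.

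In RRBS, scaling by highly methylated CpGs left 2 of 16 Mttp cytosines called at 9 wk against E18.5 and 2 against P1. From E18.5 to 9 wk it turned the changes at chr3:137754033 (-5.73 points), chr3:137754042 (-1.17), chr3:137765332 (-5.50), chr3:137765345 (-6.34), chr3:137777077 (-0.783), chr3:137777173 (-1.21) and chr3:137777195 (-3.88). Asking for a value in every library left 5 cytosines, of which 2 were called in either comparison. From P1 to 9 wk Storey q values called 11, and leaving out 1 library gave 4, without 9 wk replicate 5, to 9. Shares over all CpGs were not counted for these settings, so the shifts cannot be set against the whole table. For the gene lists, a window ending 1 kb after the start called 27 of 34 CpGs in lipoprotein assembly (25 gains, 23 of them in Cideb, and 2 losses). It called 5 of 13 in the regulators (2 gains, 3 losses) and 25 of 41 among the neighbours, all gains. Over all CpGs 58.5% gained and 6.46% lost. Scaling, chosen after seeing the data, called 45 of 91 in lipoprotein assembly and 20 of 69 among the neighbours. After scaling 17.2% of all CpGs gained and 13.4% lost. No paired analysis was possible because replicate numbers follow accession order and the LSBS rows carry no liver.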
